A study of Sus scrofa with 12 samples.

Results

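The comparison described here sets 3 libraries of pig intestinal cells kept with OAA against 3 libraries of untreated cells, gene by gene, in a deposited table of FPKM values. FPKM, fragments scaled by transcript length and by the mapped fragments of the library, is a level corrected for transcript length and library depth. Genes with at least 1 FPKM in 3 or more of the 6 libraries were taken, which gave 10763 of the 20889 genes in the table. A further 5399 genes lay below that minimum and 4727 were listed at 0 in all 6 libraries. Of the 10763 genes, 10181 had a symbol and 582 had none, and 444 were genes assembled by the submitters and named MSTRG.

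IPEC-J2 is an epithelial line derived from the jejunum of a newborn piglet, and the cells here are labelled as wild type and grown in serum-containing medium. The treated group (OAA) received 25 µM OAA for 24 h and the control group (CON) 0 µM for the same time, and both groups share the line, the medium and 1 batch entry. The series' title names 2-oxindole-3-acetic acid and links it to lipid accumulation, the proteasome subunit PSMD3 and the m6A reader YTHDF2, and the present comparison asks which transcripts differ with that treatment. Each group has 3 numbered replicates, and nothing in the labels says that they were separate cultures, so every p-value measures only the spread between these libraries, which may be technical. IPEC-J2 is 1 line, kept here on its own without other intestinal cell types.

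OAA is an oxidation product of indole-3-acetic acid, an indole that gut bacteria make from tryptophan. Many indoles bind the aryl hydrocarbon receptor, a cytosolic sensor that enters the nucleus with ARNT and switches on detoxifying enzymes such as CYP1A1. N6-methyladenosine (m6A) is placed on mRNA by a methyltransferase complex built on METTL3 and METTL14, removed by FTO and ALKBH5, and read by proteins such as YTHDF2, which brings mRNAs to the deadenylating enzymes that shorten their tails. Intestinal epithelium takes up fatty acids, joins them to glycerol as triglyceride and stores it in droplets coated by perilipins.

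Which RNA the FPKM values describe cannot be settled from the sources. They were matched to the libraries whose titles read IP, the antibody-bound part. Those libraries held 3709352 to 4607452 reads in the m6A peaks of the deposited table, while the libraries titled input held 16491095 to 23010413, although an antibody-bound part is the one in which reads gather in peaks. The libraries with FPKM are called here by the label IP. A value is an mRNA level if the labels are exchanged and antibody-bound RNA if they hold, and OAA against CON keeps its direction either way. FPKM are shares of each library, so a change in the total RNA of a cell would not show.

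The 6 libraries were of like depth and composition. From the steps that single reads make in low values, the other libraries held 0.9 to 1.11 times the depth of CON library 1. Between 10671 and 10738 genes reached 1 FPKM in a library, and mitochondrially encoded mRNAs took 11.2% to 12.3% of all FPKM. The genes analysed held 99.8% of the FPKM of each library, with a median of 11.2 FPKM per gene, so nearly all measured RNA lies within the comparison. OAA library 3 stood apart. Its log2 values correlated with those of the other OAA libraries at r = 0.992 and 0.993 across genes, which are not independent replicates, against 0.997 between OAA libraries 1 and 2 and 0.996 among the CON libraries. With the CON libraries its r was 0.994 to 0.995, above its values with its own group. OAA libraries 1 and 2 correlated with the CON libraries at 0.995 to 0.996. OAA library 3 was the highest or lowest of the 6 libraries in 52.6% of genes, where the others were so in 25.0% to 37.7%. Results that rest on it are given with and without it.

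A small number of genes held much of the FPKM. The 61 genes at 1000 FPKM or more carried 33.4% of all FPKM, and 575 genes between 100 and 1000 FPKM carried another 29.8%. The 10 genes with the highest level in each library held 12.6% to 13.3% of its FPKM. COX1, a mitochondrially encoded subunit of cytochrome oxidase, was highest with 17271, 16878 and 16804 FPKM in CON and 17619, 17497 and 17453 in OAA. The OAA libraries all lay above the CON libraries, by 0.05 ± 0.03 on the log2 scale (SE), less than the 95% interval of -0.02 to 0.11 can tell from 0. EEF1A1, which brings aminoacyl-tRNA to the ribosome, was the highest nuclear gene with 6035, 5959 and 6075 FPKM in CON and 6187, 6159 and 6096 in OAA. RBP4, the carrier of retinol in blood, came next among nuclear genes with 4159, 3958 and 4139 FPKM in CON and 4408, 4438 and 4179 in OAA. Both genes had their lowest OAA value above the highest CON value. The list went on with RPS24 of the small ribosomal subunit, the actin-binding peptide TMSB10, RPLP0, RPS2, the glycolytic enzyme GAPDH, the actin ACTG1, RPS7, RPL8 and RPSA. It also held a gene named pro-pol, a retroviral name, at 3158 to 3307 FPKM, whose reads may come from several near-identical copies.

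Markers of epithelium were present, though not all of them. EPCAM, the epithelial adhesion molecule, averaged 196 FPKM over the 6 libraries, E-cadherin (CDH1) 129, keratin 8 (KRT8) 396, keratin 18 (KRT18) 73.3, claudin 4 (CLDN4) 240 and the splicing factor ESRP1 7.33. GRHL2, a transcription factor of epithelia, was listed at 0 in every library. VIM, an intermediate filament of mesenchyme that many cell lines carry, was at 1287 FPKM, while the fibroblast collagens COL1A1 and COL1A2 stayed at 0.182 and 0.198. Markers of mature enterocytes were mostly low: 2 of 11 measured reached a mean of 1 FPKM, the brush border enzyme SI at 12.8 and APOA1 at 4.56, while VIL1 and CDX2 stood at 0.246 and 0.0237. Of other cell types, 3 of 4 endothelial markers passed 1 FPKM (CDH5 3.78, PECAM1 1.44 and KDR 1.15), as did LYZ (27.4) of 7 Paneth and stem cell markers and FCGBP (2.98) of 6 goblet cell markers, whose MUC2 was listed at 0. None of 7 leukocyte and 7 enteroendocrine markers did. No marker was called between OAA and CON, and the largest differences among the 6 epithelial markers tested were -0.12 for KRT18 and 0.06 for ESRP1, both with overlap, while EPCAM lay wholly below CON at -0.09.

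OAA and CON did not differ in any single gene at the threshold used. Differences are given throughout as OAA minus CON on the log2(FPKM + 1) scale, which understates the change of genes with low FPKM, and were tested with limma, two-sided, with Benjamini-Hochberg adjustment over the 10763 genes. At an adjusted p under 0.05 limma called 0 genes, which is 0% of those tested, and every adjusted p was 1.00. At an unadjusted p under 0.05, 152 genes (1.41%) lay higher and 204 (1.9%) lay lower in OAA. In 353 genes (3.28%) all 3 OAA values lay above all 3 CON values, and in 567 (5.27%) below. With libraries rescaled by median ratios over genes, the split at an unadjusted p under 0.05 turned to 224 higher and 158 lower. The smallest p belonged to PIH1D2, which takes part in assembling dynein arms, at 4.05, 3.33 and 3.35 FPKM in CON and 2.24, 2.05 and 2.09 in OAA (log2 difference -0.55, adjusted p = 1.00 by limma).

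The intervals give the size of difference that could be missed. On the log2(FPKM + 1) scale the half-width of the 95% interval of a difference had a median of 0.18. The interval lay wholly within a 1.25-fold change of 0 for 8522 genes (79.2%), within 1.5-fold for 10608 (98.6%) and within 2-fold for 10750 (99.9%). Precision rose with level: the interval lay within 1.5-fold for 92.8% of genes under 2 FPKM and for 99.8% of those at 100 FPKM or more, with median half-widths of 0.25 and 0.11. These shares hold less well for FPKM themselves at low level: with 0.1 added in place of 1, the interval lay within 1.5-fold for 93.3% of all genes but for 53.8% of those under 2 FPKM. Differences on the log2(FPKM + 1) scale were beyond 1.25-fold in 82 genes, beyond 1.5-fold in 6 and beyond 2-fold in 1, while the plain ratio of mean FPKM was beyond these folds in 281, 43 and 4 genes. The gene beyond 2-fold on the log2(FPKM + 1) scale, ENSSSCG00000034799, which carries no symbol and was picked out after its value was seen, had 2.39, 0 and 1.25 FPKM in CON and 1.96, 4.58 and 2.73 in OAA, so the groups overlapped. Its log2 difference was 1.00 ± 0.39 (SE), with an adjusted p of 1.00 by limma.

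**Figure D1:**
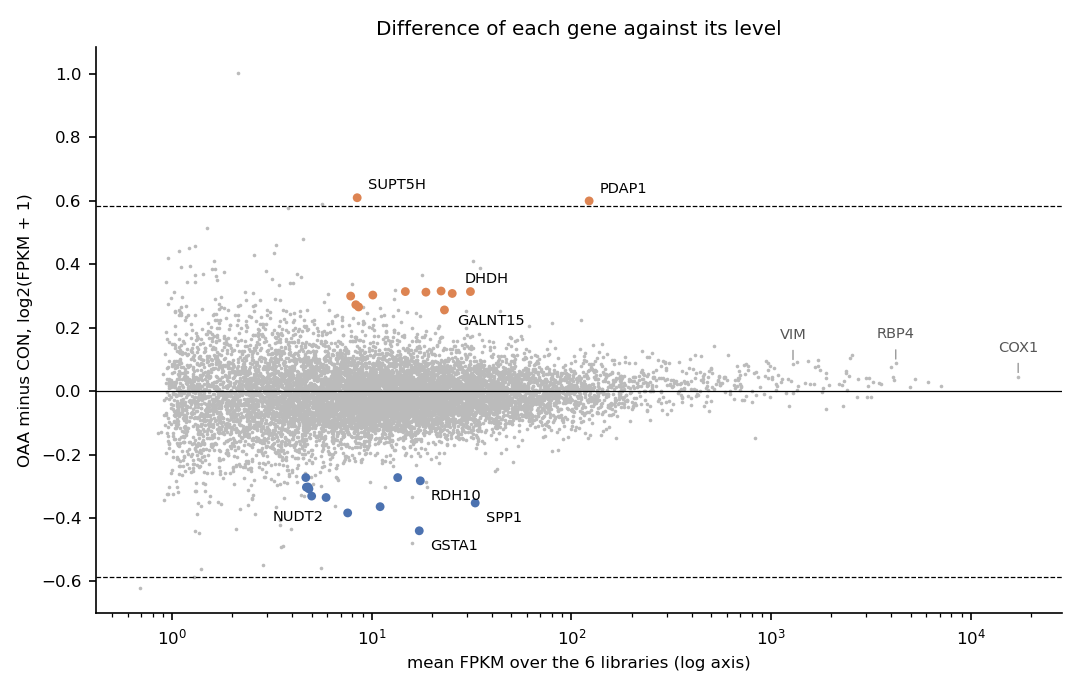
Each point is 1 of the 10763 genes, by its mean FPKM over the 6 libraries (log axis) and its OAA minus CON difference of log2(FPKM + 1), and dashed lines mark a 1.5-fold change. Coloured points are the 24 genes named by rule, 12 higher (orange) and 12 lower (blue). SUPT5H and PDAP1 are the coloured points above the upper line, at 0.61 and 0.60, and none lies below the lower one.

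The genes with the widest separation between the groups are described by a rule: a symbol, at least 5 FPKM in the higher group, no overlap between OAA and CON, an unadjusted p under 0.05, and then the 12 largest differences in each direction. Of 182 genes that met the first conditions, 71 lay higher and 111 lower in OAA. The 24 genes were chosen for their difference, so their values are a description, and none passed the adjusted threshold (adjusted p = 1.00 by limma for each). Positions are those of the deposited peak table, whose genome build is not given in the sources used here.

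SUPT5H, the elongation factor SPT5 that travels with RNA polymerase II (chromosome 6, 48089773 to 48125111), had the largest difference upward. SUPT5H had 7.94, 6.36 and 5.17 FPKM in CON and 10.9, 8.25 and 12.1 in OAA (log2 0.61 ± 0.15, SE). PDAP1, a phosphoprotein that binds platelet-derived growth factor (chromosome 3, 6343831 to 6355166), had 112, 72.2 and 109 FPKM in CON and 171, 122 and 150 in OAA (log2 0.60 ± 0.17, SE). Both genes were also widely spread within each group, CON library 2 being low for PDAP1 and CON library 3 for SUPT5H. The intervals were wide accordingly, from 0.27 to 0.95 for SUPT5H and from 0.23 to 0.97 for PDAP1.

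The other 10 genes with higher OAA values differed by 0.26 to 0.32. TARBP2, the partner of Dicer in microRNA processing, had 14.1, 12.8 and 12.2 FPKM in CON and 18.2, 16.1 and 15.1 in OAA. PAM16, part of the motor that pulls proteins into mitochondria, had 15.3, 15.8 and 18.7 in CON and 20.6, 20.1 and 21.6 in OAA. A histone gene named His3.3A, which may share reads with near-identical copies, had 27.1, 25.5 and 30.6 in CON and 38.4, 32.4 and 33.3 in OAA.

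Enzymes and signalling proteins made up much of the rest. DHDH, a dihydrodiol dehydrogenase that oxidises diols of aromatic hydrocarbons, had 24.2, 21.8 and 21.6 FPKM in CON and 28.1, 30.3 and 26 in OAA (log2 0.31 ± 0.07, SE). GNB5, a beta subunit of G proteins, had 20.2, 21.6 and 17.5 in CON and 24.2, 26.6 and 23.5 in OAA. GALNT15, which starts mucin-type O-glycans, had 20, 19.8 and 23.2 in CON and 27.3, 24.2 and 24.3 in OAA. The remaining ones were IP6K2, an inositol phosphate kinase, HSPB11, a part of the ciliary transport complex, WDR54 and COMMD9, with single values from 6.07 to 13.2 FPKM.

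GSTA1 had the largest difference downward of the 12 lower genes. It is an alpha-class glutathione transferase that joins electrophiles to glutathione (chromosome 7, 46538562 to 46567419), and its family members are alike enough to share reads. GSTA1 had 17.7, 21.2 and 21.4 FPKM in CON and 15.5, 14.6 and 13.4 in OAA, a log2 difference of -0.44 ± 0.09 (SE, 95% interval -0.63 to -0.25). SPP1, the secreted matrix protein osteopontin (chromosome 8, 131077786 to 131085340), had 40.1, 35.9 and 35.4 in CON and 30.5, 27.2 and 28.8 in OAA (log2 -0.35 ± 0.07, SE). Of the 24 genes SPP1 had the smallest unadjusted p, and its difference without OAA library 3 was the same, -0.35.

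RDH10 makes retinaldehyde from retinol, the first step towards retinoic acid. RDH10 had 19.2, 18.7 and 20 FPKM in CON and 15.2, 15 and 17.0 in OAA (log2 -0.28 ± 0.07, SE). PTBP2, a splicing repressor, had 12.7, 12.9 and 12.0 in CON and 8.62, 9.29 and 10.7 in OAA, where OAA library 3 lay nearest to CON. NUDT2, a hydrolase of the nucleotide Ap4A, had 8.25, 10.3 and 7.68 in CON and 7.31, 5.88 and 6.11 in OAA. The ADP-ribose hydrolase MACROD1, NUP62CL, the scaffold CNKSR3, the guidance factor NTN1, the palmitoyltransferase ZDHHC23, the dioxygenase ADO and the zinc finger gene ZNF396 completed the set with differences of -0.34 to -0.27. NTN1, CNKSR3 and ADO had their lowest values in OAA library 3, and their differences without it were -0.18, -0.21 and -0.15.

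**Figure D2:**
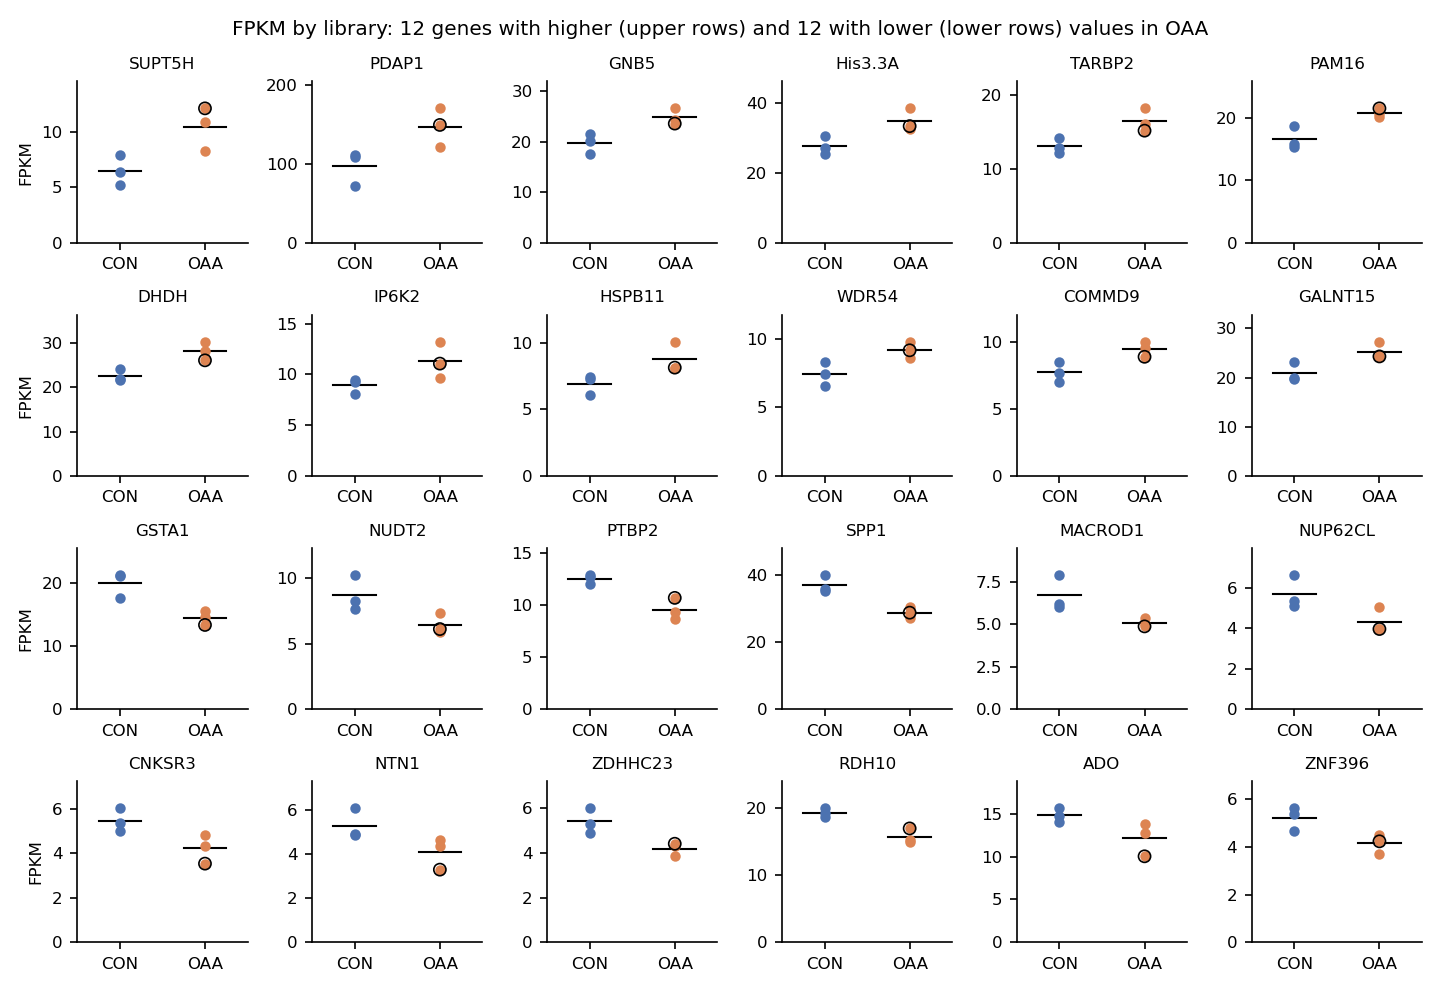
FPKM of the 24 genes in each of the 3 CON (blue) and 3 OAA (orange) libraries, on axes that start at 0. Lines are group means and the ringed point is OAA library 3. In every panel the groups are separate, as the rule demands, and in SUPT5H and PDAP1 the points of a group are spread widely.

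Gene groups were next described by lists of named pathways. The 47 lists hold 915 tested genes, of which limma called 0. At an unadjusted p under 0.05, 14 genes (1.53%) lay higher and 12 (1.31%) lower, against 1.41% and 1.9% of all genes. In 45 genes (4.92%) the OAA values lay wholly above CON and in 31 (3.39%) wholly below, against 3.28% and 5.27% of all genes. Over the 46 lists with at least 7 tested genes, the list medians ran from -0.06 to 0.05. Over all 10763 genes the median was -0.01. The difference was above 0 in 43.0% of all genes and in 63.7% of those at 100 FPKM or more. On the log2(FPKM + 1) scale the interval of the difference lay within 1.5-fold for 909 of the 915 genes (99.3%). The lists are therefore described by their levels and by single members.

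The m6A machinery was present almost complete. Of the 9 writer genes VIRMA, the scaffold of the complex, was highest with 43.2, 43.8 and 42.0 FPKM in CON and 40.8, 40.3 and 46.1 in OAA. The catalytic subunit METTL3 had 7.07, 7.32 and 7.55 FPKM in CON and 8.11, 7.73 and 7.86 in OAA (log2 0.10 ± 0.07, SE), so the groups did not overlap but lay close. METTL14, its partner, had 12.6, 12.6 and 12.5 in CON against 11.4, 11.5 and 14.6 in OAA, so that OAA libraries 1 and 2 lay below CON and library 3 above. In 5 of the 9 writer genes OAA library 3 was the highest of the 6 libraries, where it was so in 21.2% of all genes.

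Among the erasers and readers, the demethylase FTO had 8.47, 9.07 and 9.21 FPKM in CON and 9.29, 10.1 and 9.62 in OAA, without overlap (log2 0.11 ± 0.07, SE). ALKBH5 had 24.5, 25.1 and 27.9 in CON and 26.4, 27.0 and 25.7 in OAA, with overlap. Of 14 reader genes 13 were tested, IGF2BP1 being listed at 0. YTHDF2 had 29.3, 32.1 and 28.0 FPKM in CON and 26.9, 26.5 and 28.2 in OAA, a log2 difference of -0.12 ± 0.06 (SE, 95% interval -0.27 to 0.02) and the lowest of the readers. The groups overlapped through OAA library 3. The difference was -0.15 without that library and -0.07 without CON library 2, the highest of the 6. HNRNPA2B1, a nuclear RNA-binding protein and the highest reader, had 427, 419 and 406 in CON and 379, 398 and 487 in OAA. The CCR4-NOT genes, which carry out the deadenylation that YTHDF2 starts, had 4 of 13 members above 0, from -0.08 for CNOT2 to 0.09 for CNOT11.

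The 26S proteasome breaks down ubiquitin-tagged proteins, and 32 of its 33 listed genes were tested. They split evenly, 16 of 32 above 0, with a median of 0.00. PSMD3, a subunit of the lid that the title names, had 109, 110 and 109 FPKM in CON and 112, 114 and 96.0 in OAA, a log2 difference of -0.02 ± 0.07 (SE, 95% interval -0.17 to 0.13). OAA libraries 1 and 2 lay above CON and library 3 below, and without library 3 the difference turned to 0.06. PSMD13, another lid subunit, was the 1 member with an unadjusted p under 0.05, with 49.6, 48.9 and 48.5 in CON and 53.1, 54.4 and 51.8 in OAA (log2 0.11, adjusted p = 1.00 by limma). PSMB5, the chymotrypsin-like catalytic subunit, had 22.0, 18.5 and 23.6 in CON and 19.6, 19.4 and 15.8 in OAA, with overlap.

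Genes of fatty acid uptake and activation had 4 of 8 tested members above 0. RNA of several proteins that handle fat in absorptive enterocytes was all but missing in this line. FABP2, the intestinal fatty acid binding protein, averaged 0.00267 FPKM. MTTP and APOB, which load triglyceride onto lipoproteins, averaged 0.0363 and 0.0015. CD36 and FABP1 had no entry under these symbols. The lipoprotein receptor VLDLR had 42.0, 45.4 and 44.3 FPKM in CON and 41.3, 38.4 and 41.6 in OAA, without overlap (log2 -0.12). The acyl-CoA synthetases ACSL1, ACSL3 and ACSL4 each had 2 OAA libraries below CON and library 3 above it.

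Triglyceride assembly and droplet genes had 6 of 14 tested members above 0, with a median of -0.01. PLIN2, the perilipin of small lipid droplets, had 18.3, 18.5 and 20 FPKM in CON and 21.9, 20.8 and 19.5 in OAA (log2 0.12, 95% interval -0.02 to 0.27), with library 3 inside the CON range. GPAT3, an acyltransferase of the first step, had 62.0, 64.8 and 67.1 in CON and 68.6, 69.3 and 68.2 in OAA, without overlap (log2 0.09). LPIN1, a phosphatidate phosphatase, had 3.94, 4.21 and 4.05 in CON and 4.95, 5.14 and 4.11 in OAA (log2 0.17). DGAT1, which adds the last fatty acid, had 9.12, 9.62 and 10.8 in CON and 10.1, 9.61 and 7.12 in OAA. In these genes OAA libraries 1 and 2 lay at or above CON, except DGAT1, and library 3 lay lower than both.

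Fatty acid synthesis had 8 of 12 members above 0 and a median of 0.01. SCD, the desaturase that makes oleate, was highest with 219, 229 and 223 FPKM in CON and 240, 228 and 230 in OAA. FASN, the fatty acid synthase, had 58.0, 62.7 and 60 in CON and 66.9, 64.1 and 54.4 in OAA, with library 3 below CON. FADS3, a relative of the fatty acid desaturases FADS1 and FADS2, had 14.9, 16.5 and 15.4 in CON and 19.0, 17.6 and 16.6 in OAA (log2 0.17, adjusted p = 1.00 by limma). Cholesterol synthesis had 15 of 24 members above 0 and a median of 0.04. Its squalene synthase FDFT1 had 37.0, 38.4 and 39.5 in CON and 42.3, 42.5 and 43.4 in OAA (log2 0.16, adjusted p = 1.00 by limma), the 1 member at an unadjusted p under 0.05.

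Fatty acid oxidation and lipolysis had 14 of 24 members above 0 and a median of 0.01. PPARA, the nuclear receptor that drives oxidation genes, was low, with 1.58, 1.29 and 1.53 FPKM in CON and 1.93, 2.02 and 1.99 in OAA (log2 0.27, 95% interval 0.07 to 0.48, adjusted p = 1.00 by limma). Its targets CPT1A, which lets fatty acids into mitochondria, and ACADM, which starts their oxidation, stood at 0.08 and -0.05, both with overlap. ABHD5, the activator of triglyceride lipase, had 6.37, 6.66 and 7.02 in CON and 4.49, 6.15 and 6.39 in OAA (log2 -0.21). Values of the lipase PNPLA2 itself overlapped between the groups (log2 -0.10).

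**Figure D3:**
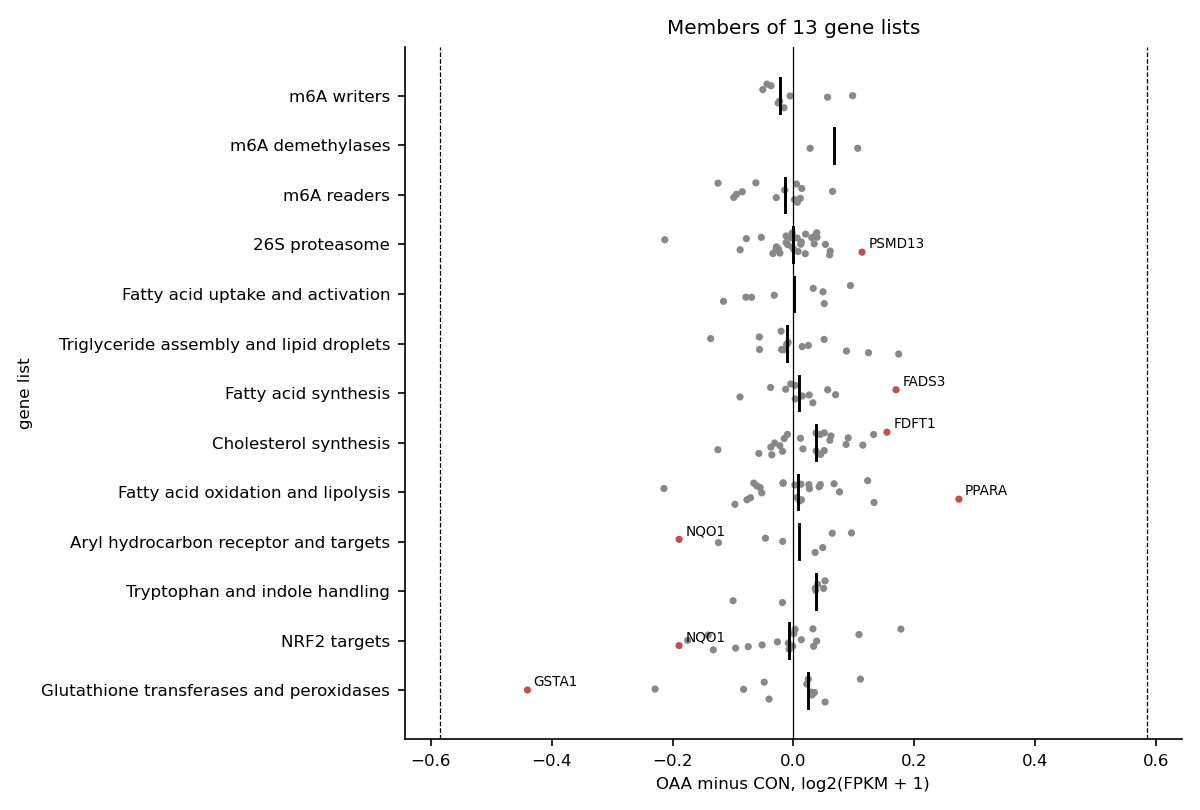
OAA minus CON differences of log2(FPKM + 1) for the tested members of 13 gene lists, 1 point per gene, with the list median as a bar and dashed lines at a 1.5-fold change. Red points have an unadjusted p under 0.05. All members lie between the dashed lines, GSTA1 at -0.44 being the farthest from 0.

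The aryl hydrocarbon receptor itself was low and its targets differed widely in level, the CYP1 genes lying under 1 FPKM. AHR had 3.06, 3.66 and 3.42 FPKM in CON and 2.97, 2.64 and 3.48 in OAA, with overlap (log2 -0.12), and its partner ARNT 19.1 to 20.7 in all 6 libraries. CYP1A1 lay below the minimum at 0.418, 0.581 and 0.482 in CON and 0.891, 0.592 and 0.600 in OAA. The OAA values lay above the CON values, most in library 1, while the lowest OAA value, 0.592, lay close to the highest CON value, 0.581. CYP1A1 was outside the main test, and the limma fit without the minimum on FPKM did not call it. CYP1A2 and CYP1B1 averaged 0.0292 and 0.0345. TIPARP, another target and a brake on the receptor, had 26.4, 26.1 and 24.9 in CON and 26.4, 27.7 and 28.9 in OAA, and the repressor AHRR stood at -0.05.

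Detoxifying genes did not share a direction. NQO1, a quinone reductase shared by the aryl hydrocarbon receptor and NRF2, had 79.9, 87.3 and 89.4 FPKM in CON and 71.1, 79.2 and 74.5 in OAA (log2 -0.19, 95% interval -0.33 to -0.05, adjusted p = 1.00 by limma). Other NRF2 targets overlapped between the groups, except SRXN1 at -0.10, which lay below CON. The glutamate-cysteine ligase subunit GCLM stood at -0.13 and the ferritin chains FTL and FTH1 at 0.01 and 0.03. Beside GSTA1, the glutathione transferase GSTO1 lay higher without overlap, with 37.4, 38.5 and 38.2 in CON and 39.6, 42.4 and 41.4 in OAA (log2 0.11), and GSTA4 stood at 0.02. Of 20 genes for handling tryptophan and indoles only 7 were tested, the highest being the transporter pair SLC7A5 and SLC3A2 and the synthetase WARS1, all with overlap. IDO1 averaged 0.498 FPKM, and TDO2 and KYNU, further enzymes of the kynurenine route, were listed at 0.

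Chaperones of the endoplasmic reticulum had 16 of 21 members above 0 and a median difference of 0.03. Their median level was 91.2 FPKM. Above 0 lay 43.0% of all genes, 46.3% of those at 50 to 100 FPKM and 63.7% of those at 100 FPKM or more. In 4 of the 21 the OAA values lay wholly above CON, where 3.28% of all genes did, and in 0 wholly below. CALR, a calcium-binding chaperone, had 428, 421 and 432 FPKM in CON and 454, 465 and 466 in OAA (log2 0.11, adjusted p = 1.00 by limma). HERPUD1, which takes part in disposing of misfolded proteins, had 34.6, 37.1 and 37.2 in CON and 40.9, 40.3 and 40.8 in OAA (log2 0.16, adjusted p = 1.00 by limma). HSPA5, the main chaperone of the compartment, had 281, 282 and 292 in CON and 300, 294 and 316 in OAA. All 3 OAA libraries shared this side in these genes, library 3 included. Of 21 genes of the integrated stress response 5 lay wholly below CON, where 5.27% of all genes did, and 1 above, with PPP1R15B at -0.14 among the lower and a list median of -0.01, that of all genes.

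Tight junction genes had 2 of 13 members above 0, where 43.0% of all genes lay. Their list median was the lowest, -0.06, with 1 member at an unadjusted p under 0.05. Adherens junction and desmosome genes had 4 of 15 above 0, a median of -0.01 and no member without overlap. CLDN7 had 2.96, 2.75 and 1.96 FPKM in CON and 1.47, 1.94 and 1.47 in OAA (log2 -0.43, 95% interval -0.72 to -0.14, adjusted p = 1.00 by limma), a claudin at low level with its highest OAA value just under the lowest CON value. MARVELD2, the protein of junctions between 3 cells, had 26.5, 26.4 and 27.9 in CON and 24.8, 24.4 and 25.3 in OAA (log2 -0.11). The more abundant CLDN1 and CLDN4 overlapped between the groups at -0.06 each. Wnt pathway genes had 4 of 21 members above 0 and a median of -0.06, with WNT7B at 14.1, 12.8 and 14.9 in CON and 13.2, 12.1 and 11.3 in OAA (log2 -0.18).

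Among other signalling genes RBPJ, the DNA-binding partner of Notch receptors, had 2.95, 2.85 and 2.65 FPKM in CON and 2.13, 1.86 and 1.94 in OAA (log2 -0.36, adjusted p = 1.00 by limma). Its coactivator MAML2 also lay lower without overlap (log2 -0.20), while the Notch target HES1 stood at -0.05 with overlap. In the retinoid pathway RDH10 lay lower and RBP4 higher without overlap, and ALDH1A1, the next enzyme after RDH10, had 2384, 2296 and 2272 in CON and 2145, 2128 and 2475 in OAA. ALDH1A1 thus had OAA libraries 1 and 2 below CON and library 3 above. ID1, an early target of BMP signals, had 34.6, 36.0 and 33.8 in CON and 37.8, 39.3 and 38.3 in OAA (log2 0.14, adjusted p = 1.00 by limma).

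Several abundant lists differed between OAA library 3 and the other OAA libraries. Of 70 cytosolic ribosomal protein genes 62 lay above 0, where 63.7% of all genes at 100 FPKM or more did. The ribosomal genes had a median of 0.04, and 0 had an unadjusted p under 0.05. Against CON, their median was 0.09 in OAA libraries 1 and 2 and -0.06 in library 3. Library 3 was the lowest of the 6 libraries in 45 of the 70 genes, where it was so in 31.5% of all genes. RPL23A had 1454, 1470 and 1493 FPKM in CON and 1650, 1637 and 1437 in OAA. Nuclear oxidative phosphorylation genes had medians of 0.07 and -0.07 in the same 2 sets of libraries, glycolysis genes 0.08 and -0.02, actin cytoskeleton genes 0.06 and -0.05, and keratins 0.03 and -0.19. The m6A writers had the opposite sign, -0.06 and 0.09, as did the mitochondrially encoded mRNAs, -0.04 and 0.04. The medians of translation factors (0.00 and 0.01) and aminoacyl-tRNA synthetases (-0.03 and -0.02) did not differ in this way. Among 24 translation factors library 3 was highest in 7 and lowest in 7, against 21.2% and 31.5% of all genes. Of 70 mitochondrial ribosomal protein genes 3 had an unadjusted p under 0.05 by limma, all higher, where 1.41% of all genes lay higher at that level. In 2 of the 70 the OAA values lay wholly above CON and in 1 wholly below, against 3.28% and 5.27% of all genes. Among the 3, MRPS25 was without overlap, with 25.6, 27.7 and 27.1 in CON and 30.8, 31.7 and 34 in OAA (log2 0.25).

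**Figure D4:**
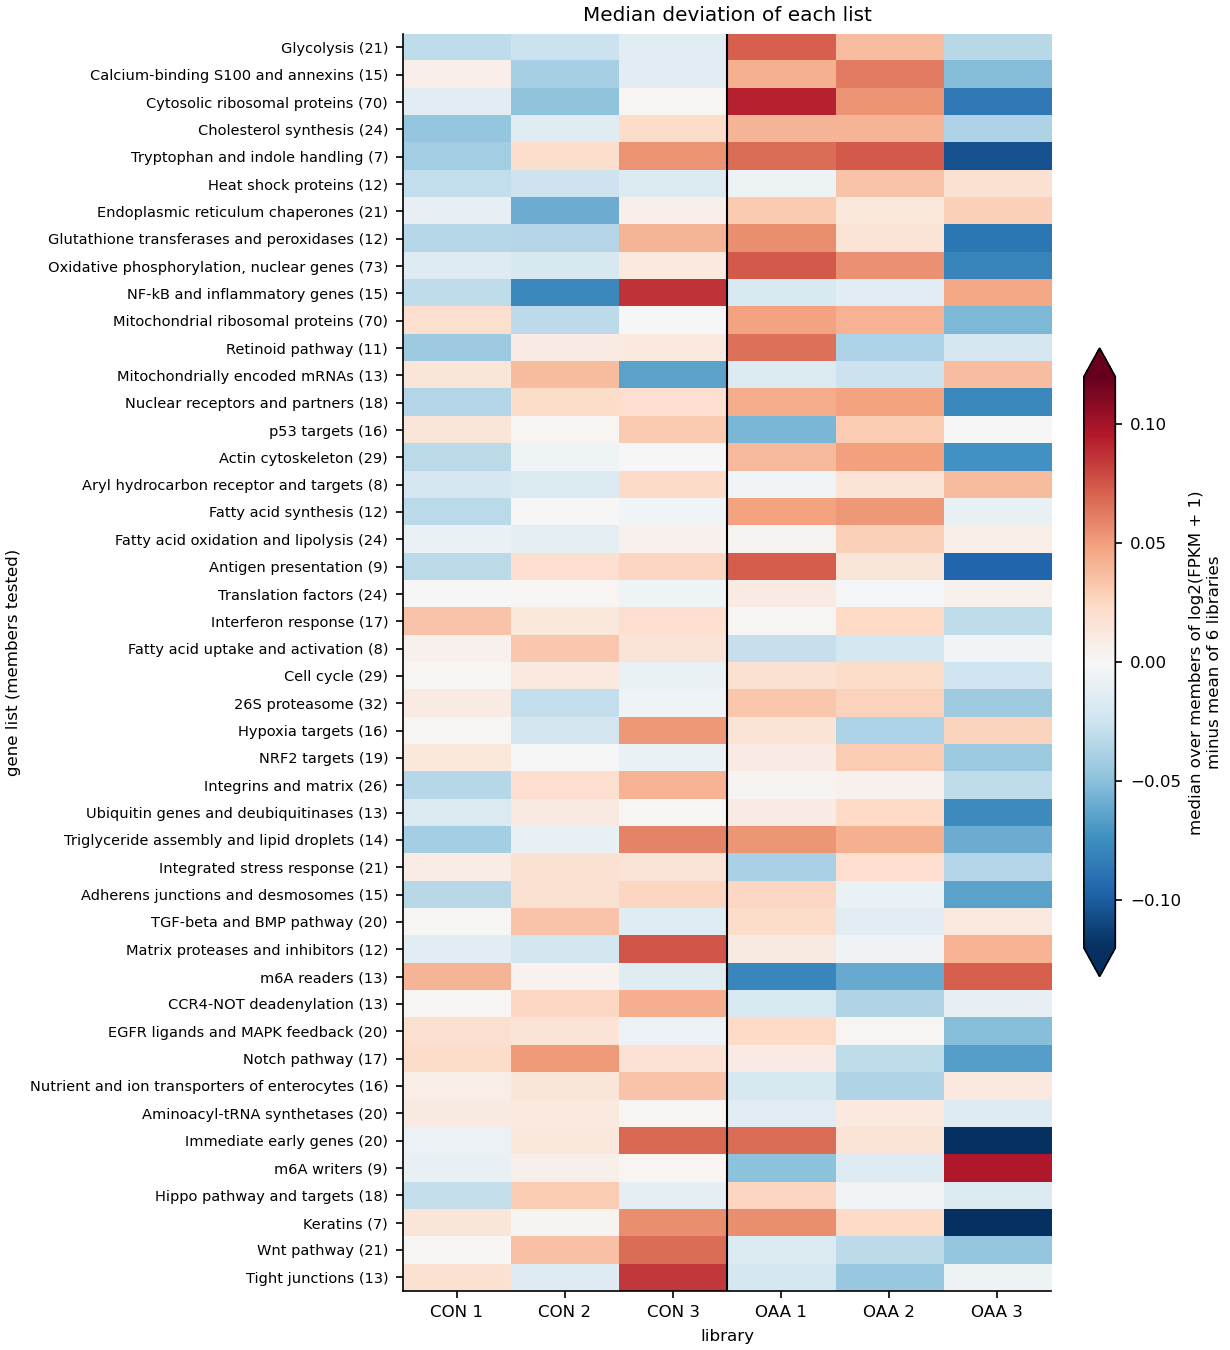
Colour gives, for each gene list (rows, with the number of members tested) and each library (columns), the median over members of log2(FPKM + 1) minus the gene's mean over the 6 libraries, and lists are ordered by their median OAA minus CON difference. The black line parts CON from OAA. OAA library 3 differs in sign from OAA libraries 1 and 2 in the ribosomal, oxidative phosphorylation, actin and m6A writer rows.

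Without OAA library 3 the comparison looked different in size but still gave 0 calls. That library was singled out by its distance from its group in these same values. Leaving it out narrows the spread within OAA, so the counts and p-values below are a description. At an unadjusted p under 0.05 limma then had 1768 genes, 814 higher and 954 lower, of which 280 were among the 356 genes at that level with all 6 libraries. The smallest adjusted p was 0.103. NDUFB4 of respiratory complex I, which then had the smallest p among genes with a symbol and at least 5 FPKM, had 73.6, 71.7 and 74.9 FPKM in CON, 89.4 and 88.7 in OAA libraries 1 and 2, and 69.5 in library 3. RPS28 had 362, 387 and 385 in CON, 449 and 459 in OAA libraries 1 and 2, and 323 in library 3. MAP4K3, a kinase of nutrient signalling, went the other way with 36.0, 34.9 and 35.1 in CON, 28.5 and 28.7 in OAA libraries 1 and 2, and 36.5 in library 3. In each of these, library 3 lay on the other side of or within the CON range.

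The genes in which OAA library 3 lay farthest from its group were picked after their values were seen. Among genes of at least 10 FPKM the highest against its group included SAMD9, CWF19L2, SMC3, SMC2, SMC4, OTUD6B and GMFB. SMC4, a subunit of the condensin ring, had 49.3, 61.0 and 39.9 FPKM in CON and 38.4, 46.6 and 68.5 in OAA. SAMD9, an antiviral factor, had 14.6, 20.2 and 14.9 in CON and 12.3, 16.3 and 25.2 in OAA. The lowest included RPL39, with 98.9, 100 and 101 in CON and 116, 119 and 82.4 in OAA, and the histone gene H2AX, with 19.8, 20.9 and 17.0 in CON and 27.6, 23.0 and 16.5 in OAA. In SMC4 and SAMD9 CON library 2 also lay above the other CON libraries.

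The library pattern followed the span of genes in the annotation. The 9312 genes with a span in the deposited peak table were ordered by it and cut into 5 groups of 1862 or 1863. In the group of the shortest genes (median 5773 bp), OAA libraries 1 and 2 lay 0.05 above CON in the median and library 3 lay at -0.09. In the group of the longest (median 136241 bp) the medians were -0.04 and 0.01. Library 3 was the lowest of the 6 libraries in 49.4% of the shortest group and in 20.2% of the longest. The 3 OAA libraries together had medians of 0.01 and -0.02 in these groups. Without library 3, 350 genes of the shortest group lay higher at an unadjusted p under 0.05 and 51 lower, against 37 and 239 in the longest. Span, level and function go together in these genes, and their part in the result was not tested.

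**Figure D5:**
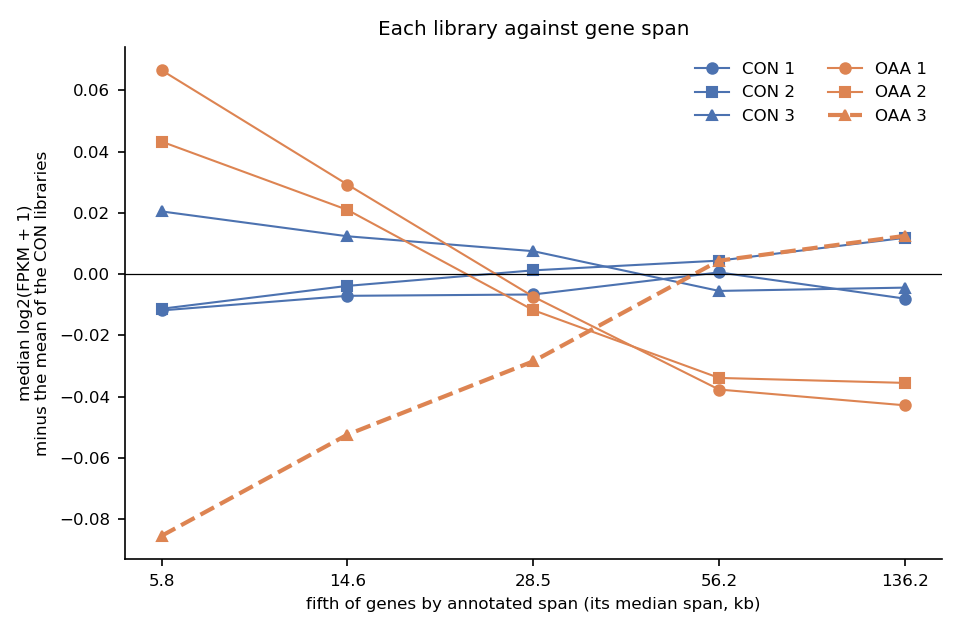
Median of log2(FPKM + 1) minus the mean of the CON libraries, for each of the 6 libraries, in 5 groups of genes ordered by annotated span (horizontal axis, median span of each group in kb). OAA libraries 1 and 2 fall from short to long genes, OAA library 3 (dashed) rises, and the CON libraries lie between -0.01 and 0.02 throughout.

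Genes at the edge of the minimum were few. Exactly 3 libraries reached 1 FPKM in 128 of the genes taken, and 144 genes left out had exactly 2. In 4 genes all OAA libraries and no CON library reached 1 FPKM, among them IFNLR1, the receptor of lambda interferons, with 0.669, 0.952 and 0.689 in CON and 1.44, 1.58 and 1.19 in OAA. In 2 genes the reverse held, one being the transcription factor MESP2 with 1.19, 1.15 and 1.16 in CON and 0.967, 0.761 and 0.754 in OAA. No gene went from near 0 to the minimum: 0 genes had at least 1 FPKM in all libraries of one group and under 0.1 in all of the other. P2RX1 and the assembled genes MSTRG.14185 and MSTRG.4381 were the other genes above the minimum in OAA alone, and MSTRG.9852 the other in CON alone.

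The genes with the widest spread within groups differed among replicates, in BIN3 through CON library 2. The ER ligase SYVN1 had 42.6, 70.3 and 77.1 FPKM in CON and 44.5, 58.4 and 74.3 in OAA. DAD1, a subunit of oligosaccharyltransferase, had 18.4, 29.2 and 43.6 in CON and 52.3, 24.2 and 42.7 in OAA. BIN3 had 32.8 in CON library 2 and 11.3 to 13.5 in the other 5 libraries. TATDN3, WDR6, C8orf82, PDCD5 and CHCHD7 were the other genes of this kind, with a pooled SD within groups of 0.43 to 0.61 log2, and differences of their size could not be detected.

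A second measure of the same 6 libraries was the count of reads in m6A peaks, summed per gene over peaks that lie under 1 gene. Of 8138 genes, edgeR's quasi-likelihood test called 0 (0%) and had 297 with an unadjusted p under 0.05, and DESeq2 also called 0. Among the genes named by rule, SPP1 lay lower here too (log2 -0.25 ± 0.09, SE), as did NUDT2 (-0.33 ± 0.14), ZDHHC23 (-0.49 ± 0.17) and ZNF396 (-0.31 ± 0.13). PDAP1 differed by 0.14 ± 0.08 and TARBP2 by 0.26 ± 0.14. These counts come from the libraries that chose the genes, so they are no further evidence. SUPT5H, GSTA1 and PTBP2 were not tested by these counts.

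Without OAA library 3 these peak counts gave 44 called genes by edgeR, 30 higher and 14 lower in OAA, which is 0.534% of the 8247 tested. Library 3 was singled out in the FPKM of these same libraries, and its removal narrows the spread within OAA. The calls are therefore a description and not a test of OAA. Of 64 ribosomal protein genes tested, 10 were among them. VIM had 2309, 2813 and 2406 reads in CON and 3540, 3489 and 2464 in OAA (log2 0.34, edgeR adjusted p = 4.08e-06 without library 3). RBP4 had 3138, 3398 and 3060 reads in CON and 4218, 4149 and 3275 in OAA. The largest difference was in pro-pol, with 3327, 3175 and 3059 reads in CON and 1286, 1248 and 3035 in OAA, although its FPKM were nearly the same in all libraries. For this gene and for ENSSSCG00000042862, with 1179, 1590 and 1092 reads in CON and 2268, 2261 and 1491 in OAA, library 3 lay near or nearer to CON. Reads of pro-pol may be shared between copies, which was not tested. Without CON library 3, edgeR called 1 gene, ARPC5, a subunit of the actin-nucleating ARP2/3 complex, with 127, 157 and 306 reads in CON and 402, 451 and 433 in OAA.

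The libraries labelled input, which the FPKM table does not cover, gave another measure. Of 9298 genes tested in their peak counts, edgeR called 0 (0%) and had 453 with an unadjusted p under 0.05, and DESeq2 called 1, ENSSSCG00000042862, which lay higher in OAA. SPP1 had 116 ± 1.73 CPM (reads scaled to library size) in CON and 92.8 ± 1.88 in OAA (SD, n = 3). GALNT15 had 209 ± 10.8 and 239 ± 18.9 (log2 0.20 ± 0.07, SE), and CALR, which is not among the 24 genes named by rule, differed by 0.21 ± 0.05 (SE). Of those 24 genes 16 were measured here, and only 2 had an unadjusted p under 0.05 by edgeR. The 16 lay between -0.32 for SPP1 and 0.27 ± 0.13 for NTN1, whose FPKM difference was -0.30. Libraries of one number may come from one culture, so a like sign is not an independent observation.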

How the data were processed

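The members and gene lists were chosen with earlier results of these data known. Per the labels' protocols, RNA of IPEC-J2 cells was cut to about 100 nt and divided into an antibody-bound and an input part. The authors deposited gene FPKM for 6 libraries and raw read counts per merged peak for all 12, with 0 columns of single libraries unmatched. Bowtie2 and HISAT2 are named in the submitters' processing notes. No version or genome build is given in the sources used here. Total depth is not given, so relative depth was read from single-read steps in low FPKM values. FPKM were compared as log2(FPKM + 1) with limma 3.58.1 (trend) in R 4.3.3, and counts of peaks under 1 gene, summed per gene, with edgeR 4.0.16 (quasi-likelihood, TMM) and DESeq2 1.42.0. The limma and edgeR fits alone were tried on simulated data. Symbols came from a reference table (9443 genes) and otherwise from the deposited peak table (738); for 169 genes the tables differ, and the reference was kept.

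Genes were named by a rule: the 24 genes described in the text, the 12 highest nuclear genes and the mitochondrial mRNAs, for each of 47 lists the 2 highest members and the 2 with the smallest p, of which a part is printed, 10 fixed genes, genes present in 1 group alone, and the 8 with the widest spread. Other members are named as examples after their values were seen. The alternatives were other pseudocounts, minimums, scalings, variance models, library weights, the replicate block, other tools and leaving out each library.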

Additional observations from a re-analysis of the deposited data

How the results depend on the processing

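With FPKM the count of called genes was 0 with all settings but 1. Without the minimum on FPKM, limma called 1 gene, MSTRG.12802 (adjusted p = 0.0292), listed at 0 in each OAA library and below 1 FPKM in CON. Leaving out each library in turn gave 0 to 0 called genes for FPKM, 0 to 44 for the peak counts labelled IP (44 without OAA library 3, 1 without CON library 3) and 0 to 1 for those labelled input (1 without OAA library 1), where DESeq2 called 1. The 24 genes named by rule kept their direction, and their adjusted p stayed above the threshold, in all 380 comparisons with alternatives. They were chosen for no overlap between the groups, so leaving out a library or changing the pseudocount could not turn their direction. YTHDF2 (-0.12) ranged from -0.17 to -0.07, the weakest without CON library 2. Of the genes of the title and the m6A enzymes, PSMD3 (-0.02 with all libraries) turned to 0.0466 with library weights and ranged from -0.0677 to 0.0567 when single libraries were left out, the highest without OAA library 3. METTL14 (-0.02) ranged from -0.124 to 0.0428, above 0 without OAA library 1 or 2, and ALKBH5 (0.03) from -0.00783 to 0.0814, below 0 without CON library 1. The causes were not tested. With the replicate block, limma called 0 genes of the FPKM comparison (234 at an unadjusted p under 0.05), and edgeR 0 in both peak counts. Deviations from the group means correlated at r = -0.09, -0.04 and -0.25 across genes between CON and OAA libraries with the same number. Deviations of 3 libraries from their own mean sum to 0, so these values cannot tell whether equal numbers were paired. With library weights 1815 genes had an unadjusted p under 0.05, the smallest adjusted p being 0.122. Precision is limited by 3 libraries per group and, under 2 FPKM, by level.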
